A study of Mus musculus with 48 samples.

Results

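Ribosome loading in mouse brain was described by setting ribosome footprints (Ribo-seq) against messenger RNA (RNA-seq) of the same stage, gene by gene. The series holds 48 libraries of 6 tissues (retina, heart, kidney, lung, liver and brain), and 8 of them are brain. All came from wild type C57BL/6 mice, the embryonic ones at day 15.5 (E15.5) and the adult ones at postnatal day 42 (P42). Each stage had 2 RNA-seq and 2 Ribo-seq libraries of brain, which the submitters call biological replicates. A gene entered at a stage when its mean RNA-seq value there reached 5 TPM, a read count scaled by gene length and by library total. Of the 22055 genes listed, 11896 entered at E15.5, 10607 at P42 and 9952 at both. The lowest mean inside that floor was 5.00 TPM at both stages, and 379 genes at E15.5 and 496 at P42 lay between 5 and 6 TPM.

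The loading ratio of a gene is log2(Ribo-seq TPM + 1) minus log2(RNA-seq TPM + 1), with the median gene of the stage set to 0. A ratio of 1 is thus a footprint level per message 2-fold above that of the median gene, on the log2(TPM + 1) scale. Footprints are the short pieces of message that a ribosome shields from nuclease, so a message carrying many ribosomes gives many of them. How often ribosomes start on a message, whether it is stored in granules, and how long its untranslated ends are beside its coding part all bear on the ratio. Messages for the ribosome itself, for iron storage and for amino acid stress are classical cases of control at initiation, and in neurons many messages are carried into axons and dendrites before they are translated. Genes were called when limma, fitted over the 8 libraries, gave an adjusted p below 0.05 and a size of at least 1 on the log2 scale.

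Marker genes of cell types were counted against the RNA-seq floor at each stage. No other tissue was set beside them, so these counts do not test the tissue label. All 20 neural progenitor genes listed passed the RNA-seq floor at E15.5 and 11 did at P42, whereas 13 of 24 myelin and oligodendrocyte genes passed at E15.5 and all 24 at P42. Of 32 synaptic vesicle genes, 31 passed at E15.5 and 32 at P42. Of 10 red blood cell genes, 8 passed at E15.5 and 4 at P42. In these bulk samples, fewer cells of a type and less RNA per cell cannot be told apart.

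Libraries differed in ways that bear on the results. Between 27522242 and 37495007 reads lay on the listed genes in the RNA-seq libraries of brain and between 14974754 and 23282821 in the Ribo-seq ones. The listed genes held between 84.0% and 87.9% of all TPM in RNA-seq and between 29.6% and 40.4% in Ribo-seq, and the rest was not analysed here. The 2 Ribo-seq libraries of E15.5 stood apart from each other: the SD over genes of their log2 difference was 0.517, against 0.152 for the Ribo-seq pair of P42 and 0.143 and 0.195 for the RNA-seq pairs. Across 11871 genes that difference, replicate 1 minus replicate 2, had a Spearman correlation of 0.657 with the GC content of the coding sequence, against -0.160 for the Ribo-seq pair of P42.

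Footprints of liver genes were present in the brain Ribo-seq libraries. For 18 genes of the liver, such as Alb (albumin) and Afp (alpha-fetoprotein), the summed level in brain RNA-seq was 10.6 and 9.61 TPM at E15.5, while in brain Ribo-seq it was 2174 and 3513 TPM, or 1.96% and 3.17% of the mean liver Ribo-seq sum. At P42 the sums were 20.5 and 67.4 TPM in RNA-seq and 1093 TPM in both Ribo-seq libraries, or 0.731% of liver. Alb stood at 0.283 and 0.528 TPM in RNA-seq and 1001 and 1694 TPM in Ribo-seq at E15.5. The liver list was drawn up after these values were seen. Some genes had a brain Ribo-seq mean under 5% of that in the highest tissue. Of these, 27 of 129 at E15.5 and 24 of 248 at P42 were called higher. Over all genes 8.64% were called higher at E15.5 and 15.3% at P42. Each gene named here that lay under 5% is given with its percentage.

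At E15.5, 1028 of 11896 genes had a ratio called above the median gene (8.64%) and 1453 a ratio called below it (12.2%). At P42, 1627 of 10607 genes were called higher (15.3%) and 1778 lower (16.8%). The spread over genes was wider at P42: the SD of the centred ratio was 1.08 there and 0.860 at E15.5. Across the 9952 genes present at both stages the ratios of the stages had a Spearman correlation of 0.665, over genes that share their libraries and their base composition and are not independent. Among them 364 were called higher at both stages and 905 lower at both, while 6 went from higher to lower and 3 from lower to higher. Between the stages 1026 of 9952 ratios rose (10.3%) and 507 fell (5.09%). These counts moved with single libraries: 475 rose and 117 fell without the first E15.5 RNA-seq library, 544 and 134 without the second, 648 rose without the first E15.5 Ribo-seq library and 1352 fell without the second, and from 154 to 172 fell without any 1 of the P42 libraries.

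**Figure D1:**
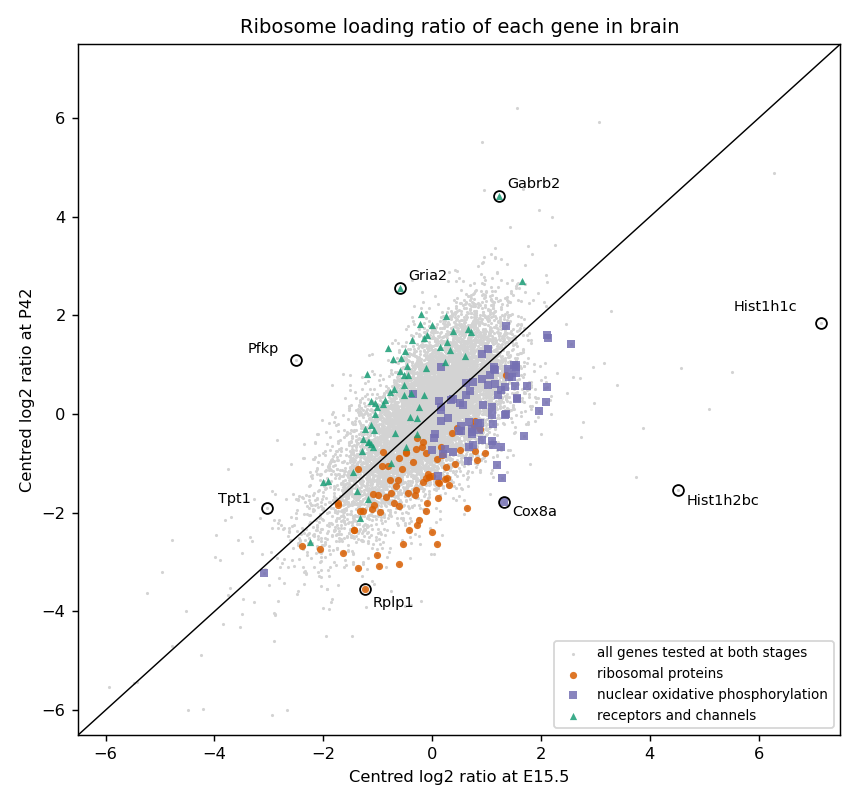
Centred log2 loading ratio of each gene in brain at E15.5 (horizontal) and P42 (vertical), 1 point per gene tested at both stages, with ribosomal protein, nuclear oxidative phosphorylation and receptor and channel genes coloured, 8 genes circled and named, and the line of equal ratios. Ribosomal protein and oxidative phosphorylation genes lie mostly below the line, and receptor and channel genes mostly above it.

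In the embryonic brain, cell cycle genes were among the most heavily loaded. Of 36 tested, 22 were called higher and 0 lower, with a median ratio of 1.24 against 0 over all genes. Mcm3, a subunit of the helicase that unwinds DNA for replication, stood at 32.5 and 36.7 TPM in RNA-seq and 60.4 and 38.0 TPM in Ribo-seq. Its footprint level exceeded its message level in both replicates, whereas the median gene lay 1.49 lower in footprints than in message on the log2 scale before centring. The ratio of Mcm3 was 1.95 (SE 0.22, adjusted p 4.64e-04), that of Mcm5, another subunit, 1.81 (SE 0.29), and that of Rrm1, the large subunit of ribonucleotide reductase, 1.80 (SE 0.12). Top2a, a topoisomerase of dividing cells, stood at 1.80 (SE 0.20), but its exons overlap a small RNA gene. Only 9 cell cycle genes passed the RNA-seq floor at P42. With Ribo-seq scaled to coding length instead of exon length, 14 of the 36 were called higher at E15.5, where 1775 of all 11877 genes were.

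Nuclear genes of oxidative phosphorylation, which encode most subunits of the respiratory chain and of ATP synthase, were also loaded above the median gene in the embryo. Of 81 tested, 40 were called higher and 1 lower, with a median of 0.92. Atp5g3, a subunit of the membrane ring of ATP synthase, stood at 196 and 203 TPM in RNA-seq and 344 and 274 TPM in Ribo-seq, the assays not overlapping, with a ratio of 2.11 (SE 0.15, adjusted p 1.02e-04). The 1 gene called lower was Cox7a2l, a factor of respiratory supercomplexes, at 386 and 380.3 TPM in RNA-seq and 21.8 and 10.5 TPM in Ribo-seq. Its ratio was -3.08 (SE 0.29, adjusted p 2.51e-04) at E15.5 and -3.22 (SE 0.29) at P42, called lower at both stages.

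The 13 proteins encoded by mitochondrial DNA are made on mitochondrial ribosomes. Of 11 tested at E15.5, 7 were called lower and 0 higher, with a median of -2.35, and at P42 6 of 13 were called lower. mt-Cytb, the cytochrome b of complex III, stood at 16551 and 16007 TPM in RNA-seq and 771 and 1196 TPM in Ribo-seq at E15.5, with a ratio of -2.60 (SE 0.20, adjusted p 1.39e-04). At P42 its ratio was -2.08 (SE 0.21), also called lower. Nuclear and mitochondrial subunits of the same complexes therefore lay on opposite sides of the median gene in the embryo by count. Of the 11 mitochondrial genes 2 had no overlapping exon, and with overlapping genes left out 1 was called lower. Whether footprints and poly(A) RNA-seq recover mitochondrial and nuclear messages alike was not tested. Without the first E15.5 Ribo-seq library 6 of the 11 mitochondrial genes were called lower and 1 higher, and without the second 10 were lower.

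Calls among proteasome and chaperone genes were on the high side. Of 41 proteasome genes, 18 were called higher at E15.5 and 11 at P42, with none lower at either. Of 23 chaperone genes, 9 were called higher at E15.5 and 14 at P42, again with none lower, where 8.64% and 15.3% of all genes were called higher. With the trend of the ratio on GC content and exon length taken off, an alternative added after the data were seen, 3 proteasome genes were called higher at P42, and 7 chaperone genes higher and 2 lower. With Ribo-seq scaled to coding length 15 proteasome genes were called higher and 4 lower at P42. Of all 10595 genes in that setting 2178 were higher and 2205 lower. Cct3, a subunit of the ring chaperone that folds actin and tubulin, had ratios of 1.68 (SE 0.13) and 1.74 (SE 0.14). Canx, the calnexin of the endoplasmic reticulum, had 1.15 (SE 0.16) and 1.77 (SE 0.16), and Hspa5, the main chaperone of that compartment, 1.35 (SE 0.18) and 1.71 (SE 0.18). The E15.5 calls of Canx and Hspa5 were lost without the second E15.5 Ribo-seq library, at 0.81 and 0.99.

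Collagens and other matrix genes, which in brain come largely from vessels and meninges, had 23 of 43 members called higher and none lower at E15.5. Fn1 (fibronectin) stood at 35.6 and 32.7 TPM in RNA-seq and 47.4 and 54.9 TPM in Ribo-seq, with a ratio of 2.05 (SE 0.14, adjusted p 8.20e-05), but its exons overlap another gene. Col1a1, the main chain of collagen I, had a ratio of 2.26 (SE 0.32) at E15.5 and 3.42 (SE 0.32) at P42. Over all genes 8.64% were called higher at E15.5. Scaling Ribo-seq to coding length left 7 of the 43 called higher, where 1775 of all 11877 genes were. The count of the list thus lay near the share of all genes in that setting. The Ribo-seq means of these genes in brain were 9.76% (Fn1) and 5.35% (Col1a1) of those in the highest tissue at E15.5, and the part that RNA from other tissues had in these ratios was not tested.

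On the low side of the embryonic brain stood many channel genes and some receptor and scaffold genes of the synapse, where 12.2% of all genes were called lower. Of 27 voltage-gated channel genes, 12 were called lower and none higher, with a median of -0.82. Kcnq3, a potassium channel subunit of neurons, stood at 27.2 and 30.0 TPM in RNA-seq but at 2.57 and 1.19 TPM in Ribo-seq. Its ratio was -1.92 (SE 0.22, adjusted p 4.90e-04). Of 23 postsynaptic scaffold and kinase genes, 6 were called lower and none higher, among them Dlgap3, a scaffold of the postsynaptic density, at -2.02 (SE 0.19). Of 22 glutamate receptor genes, 6 were called lower, led by the kainate receptor subunit Grik5 at -2.25 (SE 0.22), and 1 higher. By contrast 2 of 16 ion pump genes were called higher and 0 lower, with a median of 0.49, and 4 of 31 synaptic vesicle genes were called lower, with a median of -0.05. With a pseudocount of 4 the lower calls numbered 4 for channel, 7 for postsynaptic and 2 for glutamate receptor genes. Kcnq3, Dlgap3 and Grik5 were all called lower again at P42, at -1.36, -2.65 and -2.58; with Ribo-seq scaled to coding length the P42 call of Kcnq3 was lost, at -0.55.

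**Figure D2:**
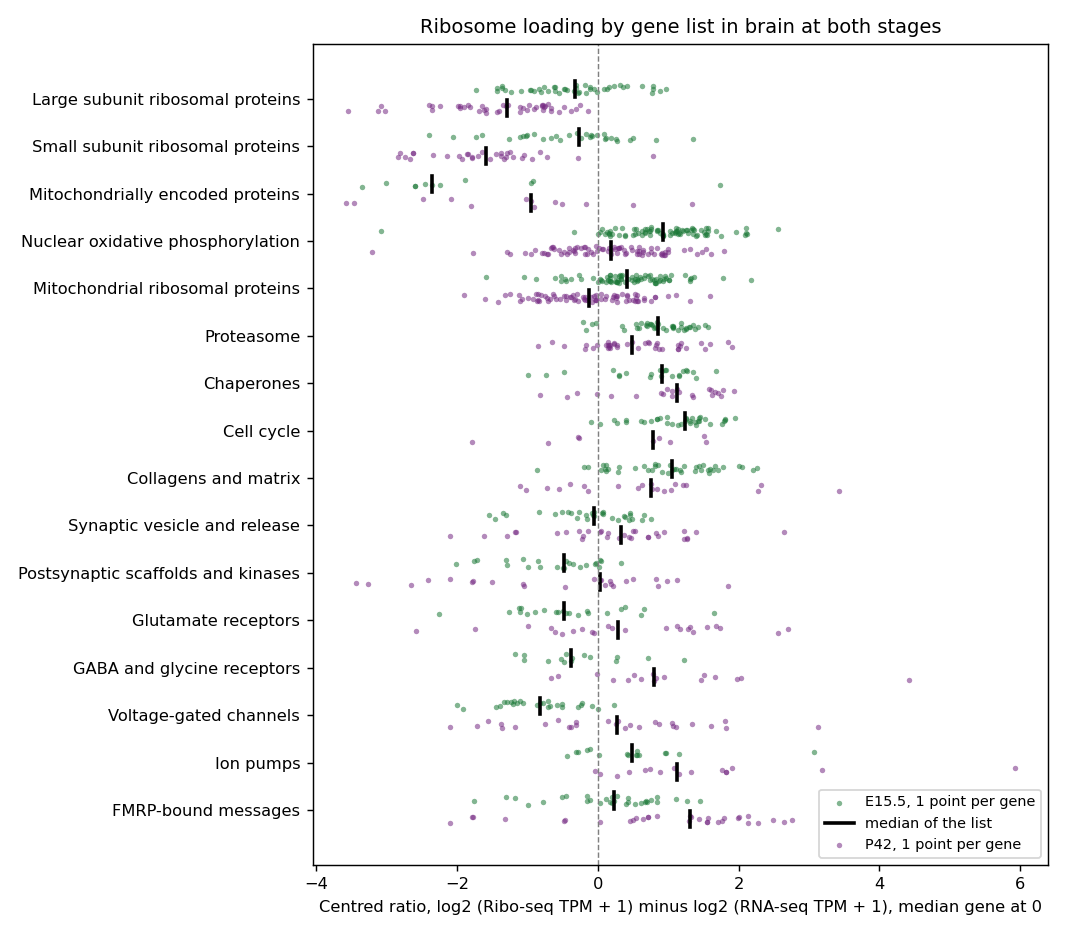
Centred log2 loading ratio (horizontal, median gene at 0) of the members of 16 gene lists in brain, 1 point per gene at E15.5 (green) and at P42 (purple), with a black bar at the median of each list. The ribosomal protein lists move left from E15.5 to P42, with medians of -0.33 and -1.29 for the large subunit, and the GABA and glycine receptor list moves right, from -0.39 to 0.80.

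In the adult brain the most heavily loaded messages included long neuronal ones. Of 32 messages bound by FMRP, the RNA-binding protein lost in fragile X syndrome, 18 were called higher and 4 lower at P42, with a median of 1.31, where 15.3% of all genes were called higher. With the trend on GC content and exon length taken off 6 were higher and 3 lower, with a median of 0.53. With coding length for Ribo-seq 12 were higher. Over all genes 895 of 10591 were higher with the trend taken off and 2178 of 10595 with coding length. Dync1h1, the heavy chain of the dynein motor, stood at 45.3 and 49.1 TPM in RNA-seq and 172 and 157 TPM in Ribo-seq, the assays not overlapping, with a ratio of 2.76 (SE 0.23, adjusted p 7.08e-05). Pclo, the presynaptic scaffold piccolo, stood at 18.2 and 17.8 TPM in RNA-seq and 62.5 and 56.6 TPM in Ribo-seq, with a ratio of 2.65 (SE 0.30, adjusted p 2.29e-04). The exons of both genes overlap those of other genes. Map1b, a microtubule protein of axons with no such overlap, had a ratio of 2.49 (SE 0.20, adjusted p 5.51e-05).

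Among membrane proteins, 9 of 16 ion pump genes, 10 of 24 glutamate receptor genes, 6 of 17 GABA and glycine receptor genes and 8 of 28 voltage-gated channel genes were called higher at P42. The numbers called lower were 0, 2, 0 and 6. Over all genes 15.3% were called higher and 16.8% lower. With the trend taken off 5, 6, 4 and 2 were higher and 0, 2, 0 and 5 lower, and the median of the channels turned from 0.28 to -0.16. Kcna1, a potassium channel of axons, stood at 8.93 and 10.0 TPM in RNA-seq and 48.3 and 42.6 TPM in Ribo-seq, with a ratio of 3.13 (SE 0.16, adjusted p 1.60e-05). Atp2b3, a calcium pump of the plasma membrane, stood at 17.7 and 17.9 TPM in RNA-seq and 91.1 and 80.8 TPM in Ribo-seq, with a ratio of 3.19 (SE 0.19, adjusted p 2.48e-05). Slc8a1, the sodium-calcium exchanger, had the highest ratio of these lists at 5.93 (SE 0.18), with 4.91 and 6.83 TPM in RNA-seq and 221 and 197 TPM in Ribo-seq, but its exons overlap other genes. Cltc, the heavy chain of clathrin, had a ratio of 3.25 (SE 0.19). In all of these genes the footprint level exceeded the message level in both adult replicates.

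Several of the highest adult ratios belonged to genes of the liver. Alb stood at 2.44 and 22.8 TPM in RNA-seq and 491 and 488 TPM in Ribo-seq, with a ratio of 6.74, and its brain footprints were 0.728% of those in liver. Apoa2, an apolipoprotein of plasma, had ratios of 6.27 at E15.5 and 4.89 at P42, with brain footprints at 2.88% and 0.689% of liver. Apoc1 had 3.71 at P42, with brain footprints at 0.725% of liver. At E15.5 the high ratios of Car2, a carbonic anhydrase, at 3.40, Blvrb, a biliverdin reductase, at 2.98, and Mt1, a metallothionein, at 2.77 went with brain footprints of 2.91%, 4.76% and 6.23% of the highest tissue. The part of footprints from other tissues in these ratios was not tested.

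On the low side of the adult brain stood messages known for translational control. Of 27 messages with regulatory upstream frames or other known control, 10 were called lower and 1 higher, with a median of -0.74. At E15.5, 6 of 25 were called lower and 2 higher, with a median of -0.41. The shares of all genes called lower were 16.8% at P42 and 12.2% at E15.5. The median change of the list between stages was 0.02, against 0.04 over all genes. Fth1, the ferritin heavy chain, whose message carries an iron-responsive element, stood at 1452 and 1392 TPM in RNA-seq at E15.5 and 5894 and 6431 TPM at P42, while its footprints stood at 431 and 335 TPM and 424 and 402 TPM. Message was higher at P42 in every replicate, while the footprint ranges of the stages overlapped. Its ratio was -2.92 (SE 0.16, adjusted p 1.80e-05) at P42 and fell between stages by 2.50 (SE 0.22, adjusted p 0.00185). Ftl1, the light chain, had ratios of -1.93 (SE 0.34) and -3.54 (SE 0.34), but its exons overlap other genes. Oaz1, the antizyme made by a programmed frameshift, had -3.03 (SE 0.42) at P42, with an overlapping microRNA gene, and Atf4, the stress transcription factor behind upstream frames, had -2.40 (SE 0.51) with no overlap.

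Selenoproteins, which read a stop codon as selenocysteine, had 6 of 19 members called lower and none higher at P42. The share of all genes called lower there was 16.8%. At E15.5, 2 of 20 selenoprotein genes were called lower and 1 higher, where 12.2% of all genes were called lower. Selenow stood at 3402 and 3277 TPM in RNA-seq and 115 and 124 TPM in Ribo-seq, with a ratio of -3.81 (SE 0.28, adjusted p 4.61e-05). Gpx4, the phospholipid peroxidase, stood at 253 and 263 TPM in RNA-seq and 20.8 and 20.3 TPM in Ribo-seq, with a ratio of -2.61 (SE 0.25, adjusted p 1.05e-04).

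Some abundant adult neuronal and myelin messages also had low ratios. Camk2n1, an inhibitor of the kinase CaMKII, stood at 2048 and 2157 TPM in RNA-seq and 111 and 107 TPM in Ribo-seq at P42, with a ratio of -3.27 (SE 0.34, adjusted p 1.58e-04). Ppp1r9b, the spine protein neurabin-2, had -3.44 (SE 0.24), and Nrsn1, a neuronal membrane protein, -3.91 (SE 0.14). Of 24 myelin and oligodendrocyte genes 4 were called lower and 2 higher at P42, a share near the 16.8% lower over all genes, with a median of -0.38 that became 0.25 with the trend taken off. Mbp, the myelin basic protein whose message travels to the myelin sheath, stood at 1191 and 1586 TPM in RNA-seq and 160.1 and 134 TPM in Ribo-seq, with a ratio of -2.24 (SE 0.24, adjusted p 1.97e-04). Mobp, another protein of compact myelin, had -2.62 (SE 0.16), with exons overlapping another gene. With Ribo-seq scaled to coding length the P42 calls of Camk2n1, Mbp and Mobp were lost, at -0.54, -0.91 and -0.51.

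Some messages were almost without footprints at both stages. Rtl8a, a gene derived from a retrotransposon, stood at 144 and 136 TPM in RNA-seq and 0.278 and 0 TPM in Ribo-seq at E15.5, with ratios of -5.48 and -5.46. Arxes2 had ratios of -4.79 and -4.71. Both genes have near-identical copies (Rtl8b and Arxes1), so short footprints cannot be placed on them with certainty and these ratios are uncertain. Ccni, a cyclin-like gene without such a copy in the lists used here, stood at 401 and 425 TPM in RNA-seq and 22.0 and 12.5 TPM in Ribo-seq at E15.5, with ratios of -3.07 (SE 0.23) and -3.13 (SE 0.23). Nudt10, a phosphohydrolase, had -3.31 (SE 0.13) and -2.56 (SE 0.13). Whether short footprints can be placed on Nudt10 with certainty was not tested.

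Ratios of many ribosomal protein genes fell between stages. At E15.5, 7 of 46 large subunit genes and 9 of 32 small subunit genes were called lower, with 1 small subunit gene higher. With Ribo-seq scaled to coding length 8 and 9 were called higher and 10 and 8 lower at E15.5, and the medians turned from -0.33 and -0.27 to 0.04 and 0.31. At P42, 28 of 46 and 27 of 32 were called lower and none higher, against 22 and 17 lower and 2 and 1 higher with coding length. Between the stages 19 and 16 ratios fell and none rose, with median changes of -0.92 and -1.19 against 0.04 over all genes, and with coding length 21 and 17 fell. The share of all ratios that fell was 5.09%. Many of these genes have processed pseudogenes or hold small nucleolar RNA genes, and among the 22 and 19 without an overlapping exon 11 and 11 fell. Without the first E15.5 Ribo-seq library 23 and 15 fell, and without the second 20 and 23, with none rising.

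Rpl9 (chr5:65388364-65391444, GRCm38), a large subunit protein without an overlapping exon, stood at 218 and 227 TPM in RNA-seq at E15.5 and 188 and 169.8 TPM at P42, while its footprints stood at 65.9 and 39.5 TPM and 11.1 and 9.33 TPM. Both assays were lower in every adult library, footprints by more. Its ratio fell by 2.41 (SE 0.33, adjusted p 0.00439), from -0.62 to -3.03. Rpl41 fell by 2.53 (SE 0.43) and Rplp1, a protein of the ribosomal stalk, by 2.32 (SE 0.66). Rps28 fell by 2.71 (SE 0.58), with exons that overlap Kank3. The calls of Rplp1 and Rps28 were lost when any RNA-seq library or any P42 Ribo-seq library was left out, with changes from -2.40 to -2.22 for Rplp1 and from -2.82 to -2.60 for Rps28. Rps27 and Rps12 were low at both stages, at -2.40 and -2.68 for Rps27 and -2.06 and -2.74 for Rps12, whose exons overlap small nucleolar RNA genes, and neither change was called.

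Ribosomal protein messages are known for a start made of a C and a run of pyrimidines, through which growth signals control their translation. In 30 bases around the start site given by RefSeq (GRCm38.p6), from 10 before to 20 after, a C followed by at least 6 pyrimidines (C or T, on the gene's strand, starting within 10 bases of the start) was found in 28 of 58 matched ribosomal protein genes (48.3%). It was found in 15.8% of all tested genes with an entry and in 14.1% of all genes of the promoter table. Of 12 combinations of window and run length tried, all gave a higher share in ribosomal protein genes. The 6 with such a run and the largest called falls are shown first, with the run in capitals, and then the 3 without one in this window and the largest falls.
Rpl35, chr2:39005112-39005141, minus strand: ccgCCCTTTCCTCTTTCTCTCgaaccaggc
Rps19, chr7:24884903-24884932, plus strand: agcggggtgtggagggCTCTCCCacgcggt
Rpl13a, chr7:45128726-45128755, minus strand: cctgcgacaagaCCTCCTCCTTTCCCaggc
Rps21, chr2:180257369-180257398, plus strand: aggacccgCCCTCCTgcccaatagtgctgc
Rpl38, chr11:114668570-114668599, plus strand: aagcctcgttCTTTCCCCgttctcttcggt
Rps9, chr7:3704031-3704060, plus strand: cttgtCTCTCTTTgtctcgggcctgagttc
Rps28, chr17:33824543-33824572, minus strand: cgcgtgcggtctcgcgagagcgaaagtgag
Rpl41, chr10:128549149-128549178, minus strand: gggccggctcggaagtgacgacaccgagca
Rpl9, chr5:65391412-65391441, minus strand: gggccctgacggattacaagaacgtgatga

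The median change was -0.70 over the 28 ribosomal protein genes with the run and -1.08 over the 30 without it, so the fall was present in both. A missing run says only that these letters are not in this window. Rpl35, which holds the longest run of those printed, stood at 372 and 366 TPM in RNA-seq at E15.5 and 207 and 215 TPM at P42, with footprints at 105 and 111 TPM and 23.4 and 19.9 TPM. Both assays were lower in every adult library, and the ratio fell by 1.97 (SE 0.19, adjusted p 0.00220); its exons overlap Wdr38 and Arpc5l. Rpl38 fell by 1.76 (SE 0.22) without an overlap.

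Calls among other genes of the translation apparatus stood beside 10.3% of all ratios rising and 5.09% falling. Of 51 initiation factor genes, 2 rose and 0 fell, and of 11 elongation factor and related genes 2 rose and 1 fell. Tpt1, a growth-related protein whose message also starts with a pyrimidine run, stood at 1381 and 1459.6 TPM in RNA-seq at E15.5 and 462 and 477 TPM at P42. Its footprints stood at 61.6 and 59.8 TPM and 68.9 and 57.7 TPM. Message was lower in every adult library and the footprint ranges overlapped, so the ratio rose by 1.14 (SE 0.19, adjusted p 0.00740), from -3.04 to -1.90. That call was lost without either E15.5 RNA-seq library, at 1.18 and 1.10. Eef1a1, the elongation factor that brings transfer RNA, was called lower at both stages, at -1.38 and -1.80, with an overlapping small RNA gene.

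Among nuclear genes for mitochondrial proteins, all calls between stages in 2 lists were falls. Of 80 oxidative phosphorylation genes 23 fell and none rose, with a median change of -0.77, and of 78 mitochondrial ribosomal protein genes 12 fell and none rose. Among all ratios 5.09% fell. Cox8a, a small subunit of complex IV (chr19:7215153-7217616), stood at 468 and 490.2 TPM in RNA-seq at E15.5 and 2826 and 2935 TPM at P42, with footprints at 614 and 297 TPM and 425 and 429 TPM. Message was higher in every adult library, while the adult footprint values lay between those of the embryonic replicates. The ratio fell by 3.09 (SE 0.42, adjusted p 0.00439), from 1.32 to -1.77. Cox6a1 fell by 2.57 (SE 0.52) and Atp5k by 2.23 (SE 0.49), and the calls of both were lost when any RNA-seq library or any P42 Ribo-seq library was left out, with changes from -2.65 to -2.49 for Cox6a1 and from -2.29 to -2.16 for Atp5k. Without the first E15.5 Ribo-seq library 18 oxidative phosphorylation and 8 mitochondrial ribosomal protein genes fell, and without the second 35 and 31.

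Some receptor and channel genes rose between stages. Of 22 glutamate receptor genes 11 rose, of 15 GABA and glycine receptor genes 11 rose, of 26 voltage-gated channel genes 11 rose and of 16 ion pump genes 6 rose, and none of any of these lists fell. Without the first E15.5 Ribo-seq library 6, 8, 10 and 4 rose, and without the second 12, 13, 12 and 8. The median changes were 1.02, 1.22, 0.86 and 0.80. With a pseudocount of 4 the numbers that rose were 8, 7, 6 and 5, and 2 channel genes fell. Of 31 FMRP-bound messages 17 rose and none fell, with a median of 1.04. Of 31 synaptic vesicle genes 7 rose and none fell, while of 23 postsynaptic scaffold genes 3 rose and 2 fell. The shares of all ratios were 10.3% rising and 5.09% falling, and the postsynaptic counts lay near them. With a pseudocount of 4 the synaptic vesicle counts were 7 rising and 2 falling, and the postsynaptic ones 1 and 3.

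Gabrb2 (chr11:42419757-42629028), the beta-2 subunit of the GABA-A receptor, stood at 17.4 and 18.7 TPM in RNA-seq at E15.5 and 7.60 and 8.49 TPM at P42, with footprints at 12.3 and 17.9 TPM and 104 and 91.2 TPM. Message was lower and footprints were higher in both adult replicates, with no overlap between the stages in either assay. The ratio rose by 3.20 (SE 0.26, adjusted p 0.00166), from 1.22 to 4.42. Gria2, the subunit that sets calcium permeability of AMPA receptors, stood at 63.4 and 60.9 TPM in RNA-seq at E15.5 and 38.6 and 38.9 TPM at P42, with footprints at 11.6 and 16.7 TPM and 124 and 113 TPM. It showed the same opposite directions without overlap, and its ratio rose by 3.16 (SE 0.25, adjusted p 0.00139); its exons overlap a small RNA gene.

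For some channels and transporters both assays were higher in the adult. Scn2a, a sodium channel of axons, stood at 24.4 and 19.2 TPM in RNA-seq at E15.5 and 38.9 and 40.7 TPM at P42, with footprints at 4.45 and 7.77 TPM and 75.3 and 69.7 TPM. Footprints differed by more than message, and the ratios rose by 2.05 (SE 0.33, adjusted p 0.00625) for Scn2a and 2.15 (SE 0.34, adjusted p 0.00600) for the sodium channel Scn1a. Slc4a10, a bicarbonate transporter of neurons, rose by 2.65 (SE 0.46, adjusted p 0.00769), from footprints of 3.03 and 7.79 TPM to 124 and 114 TPM.

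**Figure D3:**
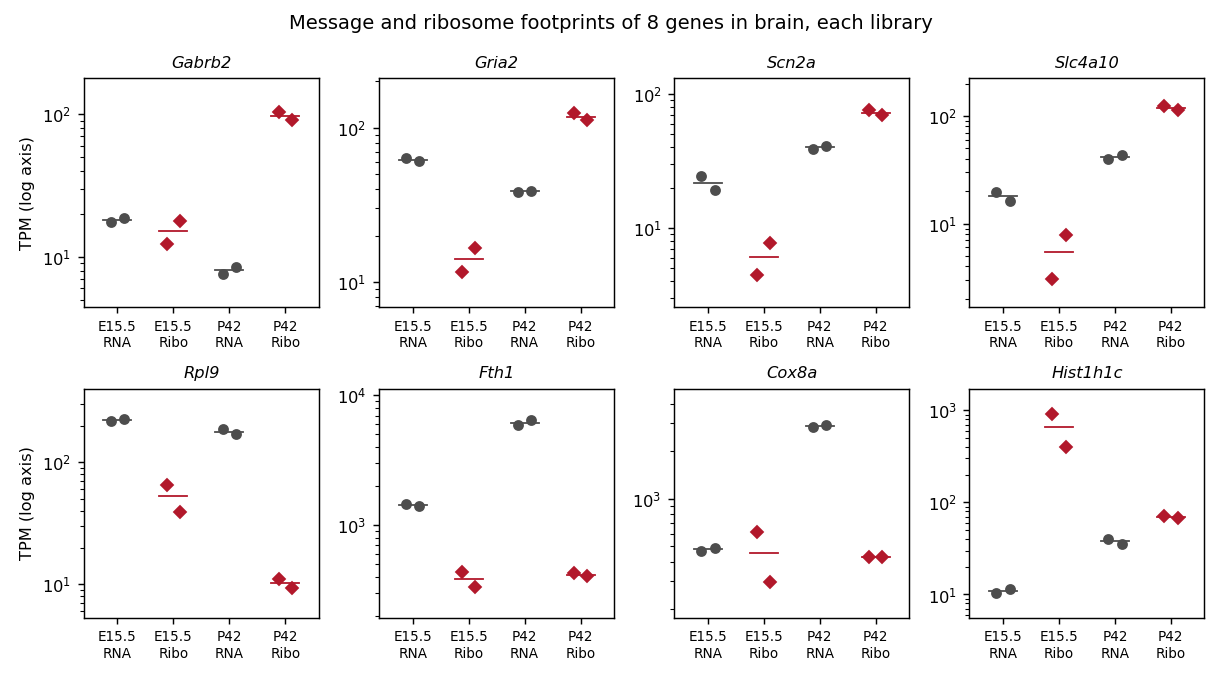
TPM on a log axis of 8 genes in each brain library, RNA-seq as grey circles and Ribo-seq as red diamonds at E15.5 and P42, with a line at the mean of each pair. In Gabrb2 and Gria2 message is lower and footprints are higher at P42, while in Fth1 and Cox8a message is higher at P42 and the footprint ranges of the stages overlap.

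Genes outside the receptor and channel lists gave some of the largest rises. Pfkp, the platelet isoform of phosphofructokinase, rose by 3.59 (SE 0.21), from 2.92 and 3.45 TPM to 57.8 and 54.2 TPM in Ribo-seq while RNA-seq gave 71.8 and 58.7 TPM and 50.9 and 52.1 TPM. Its exons overlap Pitrm1. Of 16 glycolysis genes tested at both stages Pfkp alone rose and none fell, with a median change of -0.21. Zfp281, a zinc finger transcription factor, rose by 2.52 (SE 0.22, adjusted p 0.00177), with message at 39.0 and 43.2 TPM and 11.9 and 12.9 TPM and footprints at 9.72 and 12.1 TPM and 32.2 and 27.8 TPM. Message was lower and footprints were higher in both adult replicates. Of 198 zinc finger genes 46 rose and 3 fell, where 10.3% of all ratios rose, and with the trend on GC content and exon length taken off 2 rose and 2 fell. Mog, a protein of the outer myelin surface, stood at 20.8 and 18.8 TPM in RNA-seq at E15.5 but at 0 and 0.0643 TPM in Ribo-seq. Its ratio rose by 2.31, a call that was lost with a pseudocount of 4, at 0.68. Of 13 myelin and oligodendrocyte genes tested at both stages Mog alone rose and 3 fell, with a median change of -0.54.

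The 2 largest falls among all called genes were those of histone genes. Messages of replication-dependent histones lack a poly(A) tail, and the RNA-seq libraries were prepared from poly(A) RNA per the labels' protocols, so their message level is not measured on the same footing. Hist1h1c, a linker histone, stood at 10.5 and 11.5 TPM in RNA-seq at E15.5 and 40.2 and 35.1 TPM at P42, with footprints at 907 and 401 TPM and 71.5 and 67.3 TPM. Message was higher and footprints were lower in both adult replicates, and the ratio fell by 5.29 (SE 0.47, adjusted p 0.00185), from 7.14 to 1.85. Hist1h2bc fell by 6.07 (SE 0.57). Of 67 replication-dependent histone genes listed, 6 passed the RNA-seq floor at both stages and 3 fell.

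Single neuronal and glial genes fell, some against the direction of their lists. Of 27 microtubule-associated and axonal genes 8 rose and 2 fell, with a median change of 0.45, and of 13 astrocyte genes 1 fell and none rose. These counts stood beside 10.3% of all ratios rising and 5.09% falling. Kif5a, a kinesin motor of neurons, stood at 164 and 155 TPM in RNA-seq at E15.5 and 1336 and 1324 TPM at P42, with footprints at 65.3 and 62.0 TPM and 126 and 118 TPM. Both assays were higher in every adult library, message by more, and the ratio fell by 2.63 (SE 0.17, adjusted p 9.87e-04). Nrsn1 fell by 2.70 (SE 0.20) and Ppp1r9b by 2.38 (SE 0.34), while Dpysl2, a microtubule regulator of growing axons, fell by 1.20 from 3.29 to 2.09 and was called higher at both stages. Apoe, the apolipoprotein of astrocytes, fell by 1.92 (SE 0.24), with brain footprints at 8.72% of the highest tissue at E15.5. Of 11 microglial genes 4 fell and none rose, among them C1qb, a complement subunit, by 1.82 and Tyrobp, a signalling adaptor, by 2.04. Pter, a phosphotriesterase-related gene, fell by 3.39, with brain footprints at 8.61% of the highest tissue at E15.5 and 0.801% at P42.

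The change of the ratio moved with 2 sequence features of the message. Across 9938 genes it had a Spearman correlation of -0.551 with the GC content of the coding sequence, and across 9944 genes one of 0.526 with exon length, as a description of genes that share libraries. The median change was 0.67, 0.31, -0.0023, -0.23 and -0.50 from the lowest to the highest of 5 equal groups of genes by GC content. Genes whose ratio rose had a median exon length of 7502 bases and a coding GC content of 46.8%, and genes whose ratio fell 1987 bases and 57.3%, against 4390 bases and 53.6% over all genes. With the first E15.5 Ribo-seq library alone the correlation of the change with GC content was -0.618, and with the second alone it was -0.411. In the 5 other tissues the correlation of the change with GC content ran from -0.473 (lung) to -0.148 (liver) and that with exon length from 0.00923 (retina) to 0.513 (liver).

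**Figure D4:**
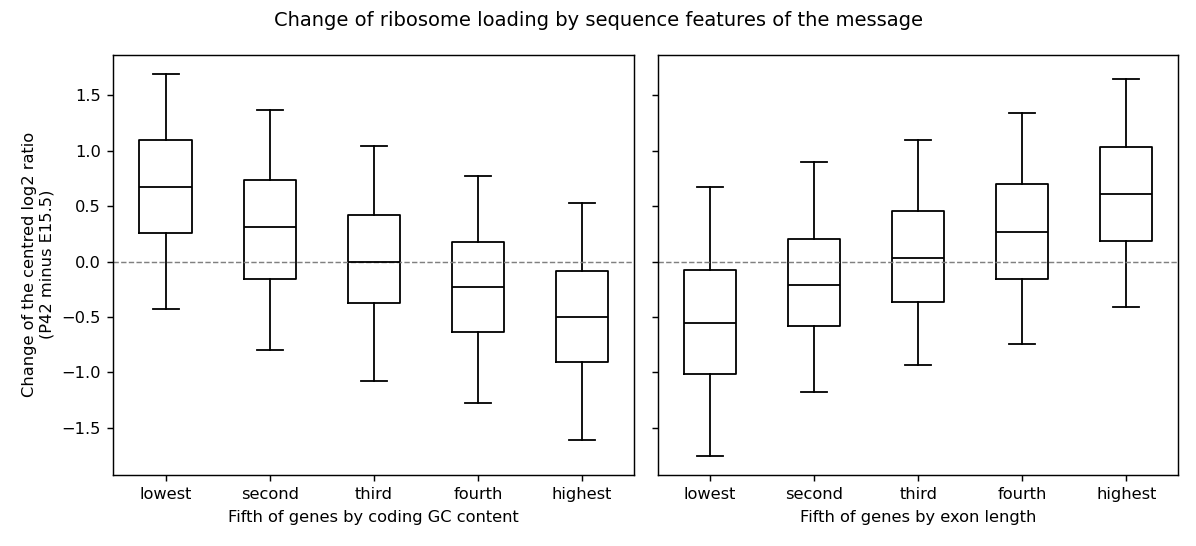
Change of the centred log2 ratio (P42 minus E15.5, vertical) of genes tested at both stages, split into 5 equal groups by coding GC content (left) and by exon length (right), with boxes from the lower to the upper quartile, a line at the median and whiskers from the 5th to the 95th percentile. The median falls from 0.67 in the lowest to -0.50 in the highest group by GC content and rises with exon length.

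The trend of the ratio on both features was taken off in an alternative added after the data were seen. Of 9938 ratios in that fit 204 rose and 206 fell, and 152 of the 1026 rises and 125 of the 507 falls were kept. In that fit 7 of 46 large and 3 of 32 small subunit genes fell, as did 8 of 80 oxidative phosphorylation genes. Of 78 mitochondrial ribosomal protein genes 2 fell, near the share of all ratios that fell in that fit. Rises numbered 4 of 22 glutamate receptor, 2 of 15 GABA and glycine receptor, 3 of 26 channel and 2 of 31 FMRP-bound genes. Of 27 microtubule-associated and axonal genes 0 rose and 3 fell, and of 11 microglial genes 0 fell. Calls that held included the rises of Gabrb2 at 2.50, Gria2 at 1.90, Slc4a10 at 2.03, Atp2b3 at 2.14 and Zfp281 at 2.17. The falls of Fth1 at -2.60, Rpl9 at -2.51, Rpl38 at -1.35, Kif5a at -2.78, Nrsn1 at -2.48, Ppp1r9b at -2.02, Cox8a at -1.91 and Hist1h1c at -4.30 also held. The changes of Scn1a at 1.12, Scn2a at 1.02, Rpl41 at -1.78, Rplp1 at -1.42, Rps28 at -2.02, Cox6a1 at -1.40, C1qb at -0.93, Tyrobp at -1.21 and Dpysl2 at -1.13 were no longer called. The cause of the trend was not tested.

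Retina, the other neural tissue of the series, had ratios close in order to those of brain. Across genes the Spearman correlation of brain and retina ratios was 0.834 over 10747 genes at E15.5 and 0.807 over 9632 at P42. A test of the difference called 158 ratios higher in brain (1.47%) and 148 lower (1.38%) at E15.5, and 551 higher (5.72%) and 291 lower (3.02%) at P42. At E15.5 the counts without 1 brain or retina library ran from 31 to 687 higher and from 40 to 479 lower, the most without the second brain Ribo-seq library and the fewest without the first brain RNA-seq library. At P42 they ran from 287 to 708 higher and from 128 to 361 lower, the fewest without the first retina RNA-seq library. Leaving out any other RNA-seq library at E15.5 left from 39 to 57 higher and from 58 to 88 lower, either retina Ribo-seq library left 104 higher, and any 1 brain library at P42 left from 165 to 191 lower. The difference at P42 had a Spearman correlation of 0.458 with exon length and -0.281 with GC content.

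Adult brain lay below adult retina for ribosomal protein genes, with 10 of 46 large and 7 of 32 small subunit genes called lower and none higher, and for oxidative phosphorylation, with 13 of 81 lower and none higher. It lay above retina for 11 of 31 FMRP-bound messages and 33 of 196 zinc finger genes, with 0 and 2 lower. Single genes with a called difference at P42 were Gabrb2, higher in brain by 2.05 (adjusted p 7.36e-04), Kcna1, higher by 1.85, and Dync1h1, higher by 1.49. Kif5a had a difference of -2.79 (adjusted p 3.01e-06), Selenow of -2.25 and Fth1 of -1.42, all called lower in brain. Astrocyte genes were called lower in brain for 6 of 13 and microglial genes for 5 of 7, with none higher.

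**Figure D5:**
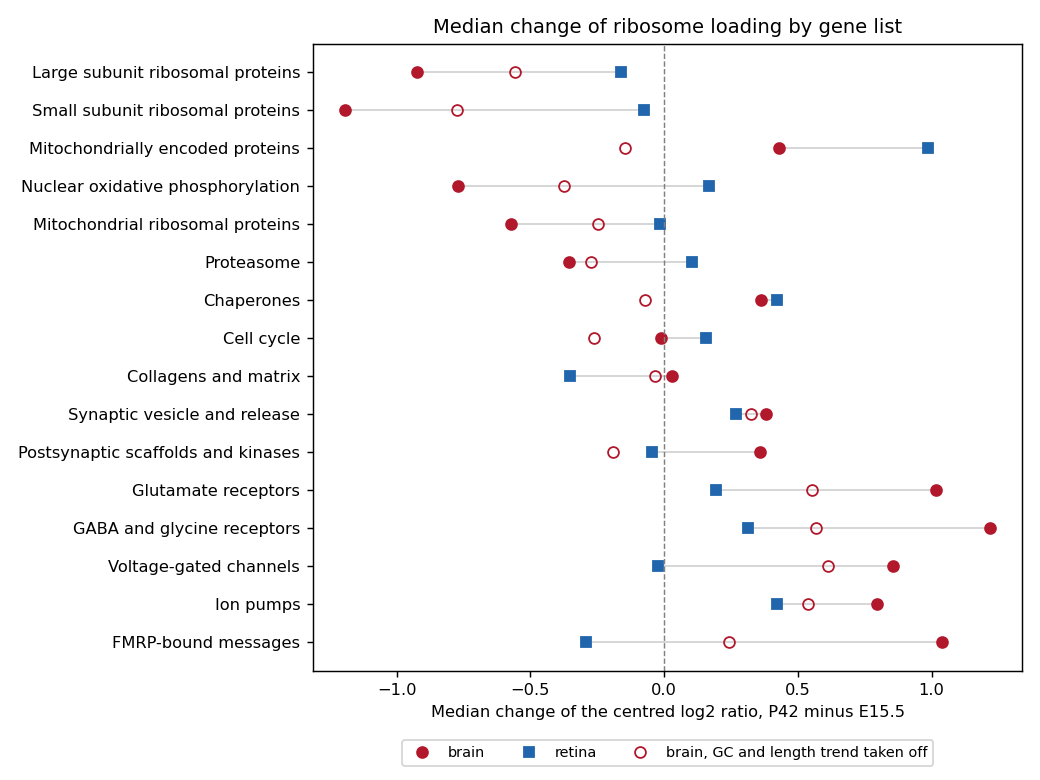
Median change of the centred log2 ratio from E15.5 to P42 (horizontal) of 16 gene lists in brain (red circles), in retina (blue squares) and in brain with the trend on GC content and exon length taken off (open red circles). The brain medians of the ribosomal protein lists lie at -0.92 and -1.19, against -0.16 and -0.07 in retina.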

How the data were processed

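Footprints came from frozen tissue lysed in the presence of cycloheximide, which holds ribosomes on the message, with ARTseq reagents and removal of ribosomal RNA by Ribo-Zero, while RNA-seq used poly(A) selection, per the labels' protocols. The submitters' processing notes list CASAVA 1.8.2, cutadapt 1.8.1, TopHat2 2.0.14, featureCounts 1.6.2 and the GRCm38.p6 build, with no settings. The deposited values are TPM per gene in 4 tables, and how multi-mapped reads were treated is not given in the sources used here. Gene models came from GENCODE M21, matched by Ensembl identifier.

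TPM times exon length was a whole multiple of 1 step per library for 100% of values under 20 reads (tolerance 0.02 read), which gave the read totals. The values were analysed as log2(TPM + 1) with limma 3.58.1 (R 4.3.3), 4 groups of 2 in brain, empirical Bayes with a trend, 4 residual degrees of freedom, and Benjamini-Hochberg adjustment over all genes tested. Retina was compared in a fit of 16 libraries. On simulated data for the change between stages over 9952 genes, 88% of genes changed by 1.5 (log2) and 95.5% of those changed by 2 were recovered, with 0.0942% of unchanged genes called. The noise was drawn independently for each gene and library, with the variances of the fit itself. The difference along GC content between the E15.5 Ribo-seq libraries was not simulated, so these rates do not cover it.

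Members and gene lists were chosen with earlier results of these data known. The liver list first held 22 genes, and Ttr, Vtn, Trf and Rbp4 were taken out after their values were seen. Genes were named by rank: the 10 most extreme called ones at each stage and between stages, without overlapping exons, up to 4 called and 2 not called members of each list, and a fixed set; overlapping or further genes are marked as such or come from the lists.

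Alternatives were pseudocounts, floors, scalings, coding length, replicate blocks, each library left out and, added after the data were seen, voom on the recovered reads, a crossed block, the trend on GC content and length taken off, and genes with few brain footprints left out. The tract rule was picked after 12 settings had been tried. In limma fits with 1 library left out, the lone library was assumed to vary like the other groups.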

Additional observations from a re-analysis of the deposited data

Results flagged for a closer look

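For 9 genes the ratio was called on opposite sides of the median gene at the 2 stages and the difference between stages was itself called by limma. The 6 that went from higher at E15.5 to lower at P42 were Hist1h2bc (change -6.07, adjusted p 0.00215), Wdr38 (-5.01, adjusted p 4.43e-05), Cox8a (-3.09, adjusted p 0.00439), CAAA01147332.1 (-2.66, adjusted p 0.0110), Cox6a1 (-2.57, adjusted p 0.0122) and Atp5k (-2.23, adjusted p 0.0169). The 3 that went from lower to higher were Pfkp (3.59, adjusted p 5.60e-04), Nfat5 (2.36, adjusted p 0.00125) and Srr (2.33, adjusted p 0.00139). The exons of Srr overlap those of Smg6 and Tsr1. With the trend on GC content and exon length taken off, of the 8 with a value only Wdr38 kept opposite calls (change -4.67): the P42 ratio was no longer called for the other 7, and the change was no longer called for Cox6a1 (-1.40) and Atp5k (-1.53).

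Wdr38, a WD-repeat gene, stood at 6.15 and 5.87 TPM in RNA-seq and 32.6 and 32.2 TPM in Ribo-seq at E15.5, and at 23.1 and 24.2 TPM and 4.04 and 4.31 TPM at P42. Its exons overlap those of Rpl35 and Arpc5l. Nfat5, a transcription factor of osmotic stress, stood at 17.7 and 18.2 TPM and 2.01 and 2.04 TPM at E15.5 and at 8.16 and 8.02 TPM and 10.2 and 8.92 TPM at P42. Its brain footprints differed between stages without overlap, while its message was lower in both adult libraries.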

How the results depend on the processing

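Counts given here are genes called with limma. At E15.5, 1028 genes were higher and 1453 lower; a pseudocount of 4 gave 487 higher, no RNA-seq floor 2346 and 2828, overlapping genes left out 616 and 838, and coding length for Ribo-seq 1775 higher. At P42, 1627 were higher and 1778 lower; a pseudocount of 4 gave 1082 higher, a floor of 20 TPM 953 and 1098, no floor 3346 lower, overlapping genes left out 950 and 1050, and the trend on GC content and length taken off 895 higher. Of the change, 1026 rose and 507 fell; a floor of 20 TPM gave 507 and 204, no floor 1419 falls, overlapping genes left out 609 and 305, a fit of all 48 libraries 789 falls, and the trend taken off 204 and 206. Against retina at E15.5, 158 higher and 148 lower became 95 and 68 with a pseudocount of 0.25 and 33 and 44 with a floor of 20 TPM. At P42, 551 and 291 became 170 and 71 with a floor of 20 TPM. A stricter floor or leaving out overlapping genes also tests fewer genes; the cause of the other shifts was not tested.

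Leaving out 1 library at a time gave 904 to 1232 higher and 1319 to 1639 lower at E15.5, 1585 to 1645 and 1563 to 1798 at P42, and 475 to 1512 rises and 117 to 1352 falls between stages. Against retina it gave 31 to 687 and 40 to 479 at E15.5 and 287 to 708 and 128 to 361 at P42.

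Same-numbered RNA-seq and Ribo-seq libraries did not deviate together (correlation of deviations -0.196 at E15.5 and -0.195 at P42), so the numbers were not used to pair them. With the replicate number as a block 1036 ratios rose and 668 fell between stages, with the crossed pairing 1047 and 633, and the block gave 266 higher in brain than retina at E15.5. Signs of called ratios reversed for Dync1h1 (-0.17), Camk2n1 (1.39) and CAAA01147332.1 (-0.39) at E15.5 with coding length and for Nfat5 at P42 (-0.15) with the trend taken off. The change of Arxes2, which was not called at 0.08, was called at -1.77 with voom on recovered reads. Of 51 named genes with a called change, 26 lost the call under at least 1 alternative. Among tested genes with a recovered read count, 0.812% at E15.5 and 0.639% at P42 had under 20 Ribo-seq reads. The part that depth had in the ratios was not tested.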
